A study of Mus musculus with 23 samples.

Results

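Potassium channel genes were taken as all probes whose array annotation carried a symbol of the Kcn series, that is Kcn followed by letters and a number. The rule gave 116 probes for 78 genes, of 25697 probes and 16593 genes on the array, and used no measured value. They comprised 23 genes for the pore-forming subunits of voltage-gated channels (Kv), 9 for silent Kv subunits that modify other Kv channels, and 7 for calcium- or sodium-activated channels. The remaining genes were 12 for inward rectifiers, 13 for two-pore channels and 14 for auxiliary subunits. Families were assigned by the letters that follow Kcn in the symbol.

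RNA from mouse brain was measured on 23 Illumina expression arrays, 1 per C57BL/6J mouse. At E12.5, an embryonic stage at which forebrain neurons are being born, the tissue was labelled forebrain. The groups differed in Meis1, the gene of a homeodomain transcription factor. There were 5 wild types (3 males and 2 females), 6 heterozygotes (3 of each sex) and 5 homozygotes (3 males and 2 females). The adults were males of 23 weeks whose tissue was labelled whole brain in the sample titles, 3 wild types and 4 Meis1 heterozygotes. The series title names the ganglionic eminences. The sources used here do not give the change made to Meis1.

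Potassium channels let potassium leave the cell and so set the resting potential, end the action potential and limit repetitive firing. Kv and calcium-activated channels open on depolarisation or on a rise in calcium, whereas two-pore and inwardly rectifying channels carry much of the current at rest. Auxiliary subunits bind pore subunits and change their trafficking, voltage dependence or inactivation. Dividing progenitors and young neurons rely mainly on leak conductances, and fast delayed rectifier and A-type currents appear as neurons mature.

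Meis1 itself was read first as a check of the genotypes. Its log2 signal lay between 8.41 and 8.93 in E12.5 homozygotes, between 9.40 and 9.79 in heterozygotes and between 9.73 and 10.15 in wild types. Homozygotes stood apart from both other groups, and heterozygotes overlapped wild types at the edge. In adults it lay between 7.03 and 7.77 in heterozygotes and between 7.84 and 8.47 in wild types. Of 9 embryonic forebrain genes 7 had a probe. Dlx1, Dlx2, Nes and Sox2 were detected on every embryonic array, and Emx2 was detected on none. Adult heterozygote replicate 4 stood apart in cerebellar genes. Its log2 signal for the Purkinje cell gene Pcp2 was 8.57, against 10.07 to 10.50 in the other 6 adults, and for the granule cell gene Cbln1 it was 9.76, against 11.04 to 11.40. Arrays had a median signal of 164 to 210 in embryos and 119 to 143 in adults, with 52.3% to 55.1% of probes detected. Precision is limited by how many arrays each group has.

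The regulatory sequence of these genes was examined because Meis1 binds DNA. RefSeq promoters (assembly GRCm38.p6, 250 bases before to 50 after each start) were found for 60 of the 78 genes, which gave 82 promoters of 300 bases. The core of the Meis1 binding motif, TGACAG on either strand, was present in 18 of the 82 promoters, or 21.95%, against 19.2% of 32851 promoters of all genes. The GC box GGGCGG was in 41 of the 82, against 35.7% of all promoters, and the TATA box TATAAA was in 4.88%, against 13.6%. The left part of the element bound by the neuronal repressor REST, TTCAGCACC, was in 1 of the 82 promoters, against 0.371% of all. Median GC content was 58.3%, against 52.7% for all promoters. The searches covered both strands, and no other motif searched contains the Meis1 core. A match describes letters and not a bound site.

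5 promoters are printed, those of Kcna3, Kcne4, Kcne2, Kcnab1 and Kcnc4. Kcnc4 had the largest rise between stages. The others had the smallest unadjusted p for homozygotes against wild types, and none of them was called for genotype. Capitals mark TGACAG or its reverse complement. The Kcna3 window (chr3:107035912-107036211, plus strand) and the Kcnc4 window (chr3:107458849-107459148, minus strand) hold none. The windows of Kcne4 (chr1:78816661-78816960), Kcne2 (chr16:92292139-92292438) and Kcnab1 (chr3:64948962-64949261), all on the plus strand, hold 2 each. In Kcne4 the first of the pair and in Kcnab1 the second span the start of transcription. Another Kcnab1 window (chr3:65187853-65188152), not printed, holds 1.
Kcna3: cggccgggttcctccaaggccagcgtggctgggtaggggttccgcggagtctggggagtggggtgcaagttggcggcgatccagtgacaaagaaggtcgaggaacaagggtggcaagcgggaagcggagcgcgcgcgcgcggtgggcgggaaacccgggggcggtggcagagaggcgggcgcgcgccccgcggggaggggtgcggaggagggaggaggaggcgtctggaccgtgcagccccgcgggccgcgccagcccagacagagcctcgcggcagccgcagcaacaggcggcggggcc
Kcne4: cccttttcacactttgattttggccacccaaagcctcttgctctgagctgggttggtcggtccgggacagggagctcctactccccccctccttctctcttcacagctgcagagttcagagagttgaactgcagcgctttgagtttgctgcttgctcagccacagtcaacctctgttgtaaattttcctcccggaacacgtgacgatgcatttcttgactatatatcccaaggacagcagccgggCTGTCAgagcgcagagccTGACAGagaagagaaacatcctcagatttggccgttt
Kcne2: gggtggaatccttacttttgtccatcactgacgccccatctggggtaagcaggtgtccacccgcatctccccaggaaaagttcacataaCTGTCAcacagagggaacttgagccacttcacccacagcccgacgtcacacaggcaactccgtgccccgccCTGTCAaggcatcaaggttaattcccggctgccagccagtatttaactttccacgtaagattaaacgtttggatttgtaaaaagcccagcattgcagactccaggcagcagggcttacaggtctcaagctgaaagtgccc
Kcnab1: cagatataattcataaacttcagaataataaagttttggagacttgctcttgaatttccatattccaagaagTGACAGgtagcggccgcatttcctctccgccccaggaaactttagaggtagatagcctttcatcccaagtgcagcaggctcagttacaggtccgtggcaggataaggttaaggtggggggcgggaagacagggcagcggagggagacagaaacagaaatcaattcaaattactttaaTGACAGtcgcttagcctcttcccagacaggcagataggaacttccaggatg
Kcnc4: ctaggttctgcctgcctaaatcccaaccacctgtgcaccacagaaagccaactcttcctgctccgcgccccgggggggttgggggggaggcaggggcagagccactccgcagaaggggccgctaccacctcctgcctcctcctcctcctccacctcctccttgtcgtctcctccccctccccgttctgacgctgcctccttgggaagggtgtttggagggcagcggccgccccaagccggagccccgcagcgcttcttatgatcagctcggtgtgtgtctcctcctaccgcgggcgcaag
The Kcna3 window was the richest in GC of these, at 75.0% with 37 CpG pairs and 2 GC boxes. Kcnab1 had 46.7% GC and 7 CpG pairs. Kcnc4 had 66.7% GC and 17 CpG pairs.

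A probe counted as detected on an array where its detection p-value was under 0.05. Probes detected on at least 5 embryonic arrays, or on at least 3 adult arrays, were kept for tests within a stage, and probes detected on at least 3 of all 23 arrays were kept for tests between stages. By these rules 39 potassium channel probes (31 genes) were kept in embryos, 64 (50 genes) in adults and 32 (26 genes) in both. In the joint set 72 probes (56 genes) were kept and 44 were not. No probe was detected on any array for 21 genes, among them the A-type subunits Kcnd1 and Kcnd3, the renal rectifier Kcnj1, the sensory neuron leak channel Kcnk18 and the modifiers Kcng1, Kcng3 and Kcnv2. Of the 23 Kv genes 7 were kept in embryos and 14 in adults. The corresponding numbers were 3 and 5 of 9 silent modifiers, 3 and 5 of 7 calcium- or sodium-activated channels, and 4 and 8 of 12 inward rectifiers. They were 5 and 8 of 13 two-pore channels and 9 and 10 of 14 auxiliary subunits.

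Adult wild type brain was compared with E12.5 wild type forebrain to describe which channels each stage carried. Most potassium channel genes were higher in the adult, led by the Kv subunit Kcnc4 (5.43 ± 0.16 log2 units, SE) and the beta subunit Kcnab1 (5.31 ± 0.20). The two-pore genes Kcnk5 and Kcnk10 were the members furthest in the other direction. With limma and Benjamini-Hochberg adjustment over all 16352 probes, 68.4% of all probes passed the threshold of 0.05, 31.4% higher and 37.1% lower in the adult. Of the 72 potassium channel probes, 54 (75.0%) were higher, 6 (8.33%) lower and 12 not called. With 1 probe per gene, 43 genes were higher, 5 lower and 8 not called, and 22 genes had no probe to test. The median change was 1.35 over the 72 probes and -0.12 over all probes.

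Part of that count follows from the filter, since 23 of the 56 genes were detected on no E12.5 wild type array and could be kept through the adults. Among probes detected on all 8 wild type arrays, where the filter fixes no direction, 15 of 21 potassium channel probes (71.4%) were higher and 2 (9.52%) lower. Of all 11076 such probes 3343 (30.2%) were higher and 4536 lower. Sizes below, bounds included, hold for background-corrected, quantile-normalised signal. Without background correction the median change was 0.60 over the members and -0.05 over all probes, and 24 of 30 named genes moved by over 1.5 times. Kcnc4 then stood at 4.04, Kcnab1 at 3.46, Kcnf1 at 2.99, Kcna2 at 2.22, Kcnj4 at 2.22, Kcng4 at 1.81, Kcnh3 at 1.77 and Kcnma1 at 1.73. Kcnk5 stood at -1.44, Kcnk10 at -0.90 and Kcnn1 at -0.33. Of the called genes named by rule, Kcne4 lost its call there. With median scaling the medians were 1.28 and -0.34. Stage, dissected tissue and array set coincide here and cannot be told apart. In bulk tissue, fewer cells of a type and less RNA per cell cannot be told apart either. The mean log2 signal of 6 neuronal markers was between 7.13 and 7.64 on E12.5 wild type arrays and between 10.95 and 11.04 on adult ones. That of 5 astrocyte markers was 7.18 to 7.53 and 10.56 to 10.95, and that of 4 oligodendrocyte markers was 5.19 to 5.37 and 11.67 to 11.83. 3 cerebellar markers, a region outside the forebrain, read 6.29 to 6.50 and 9.97 to 10.04. The part of these cell types in the channel results was not tested.

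**Figure D1:**
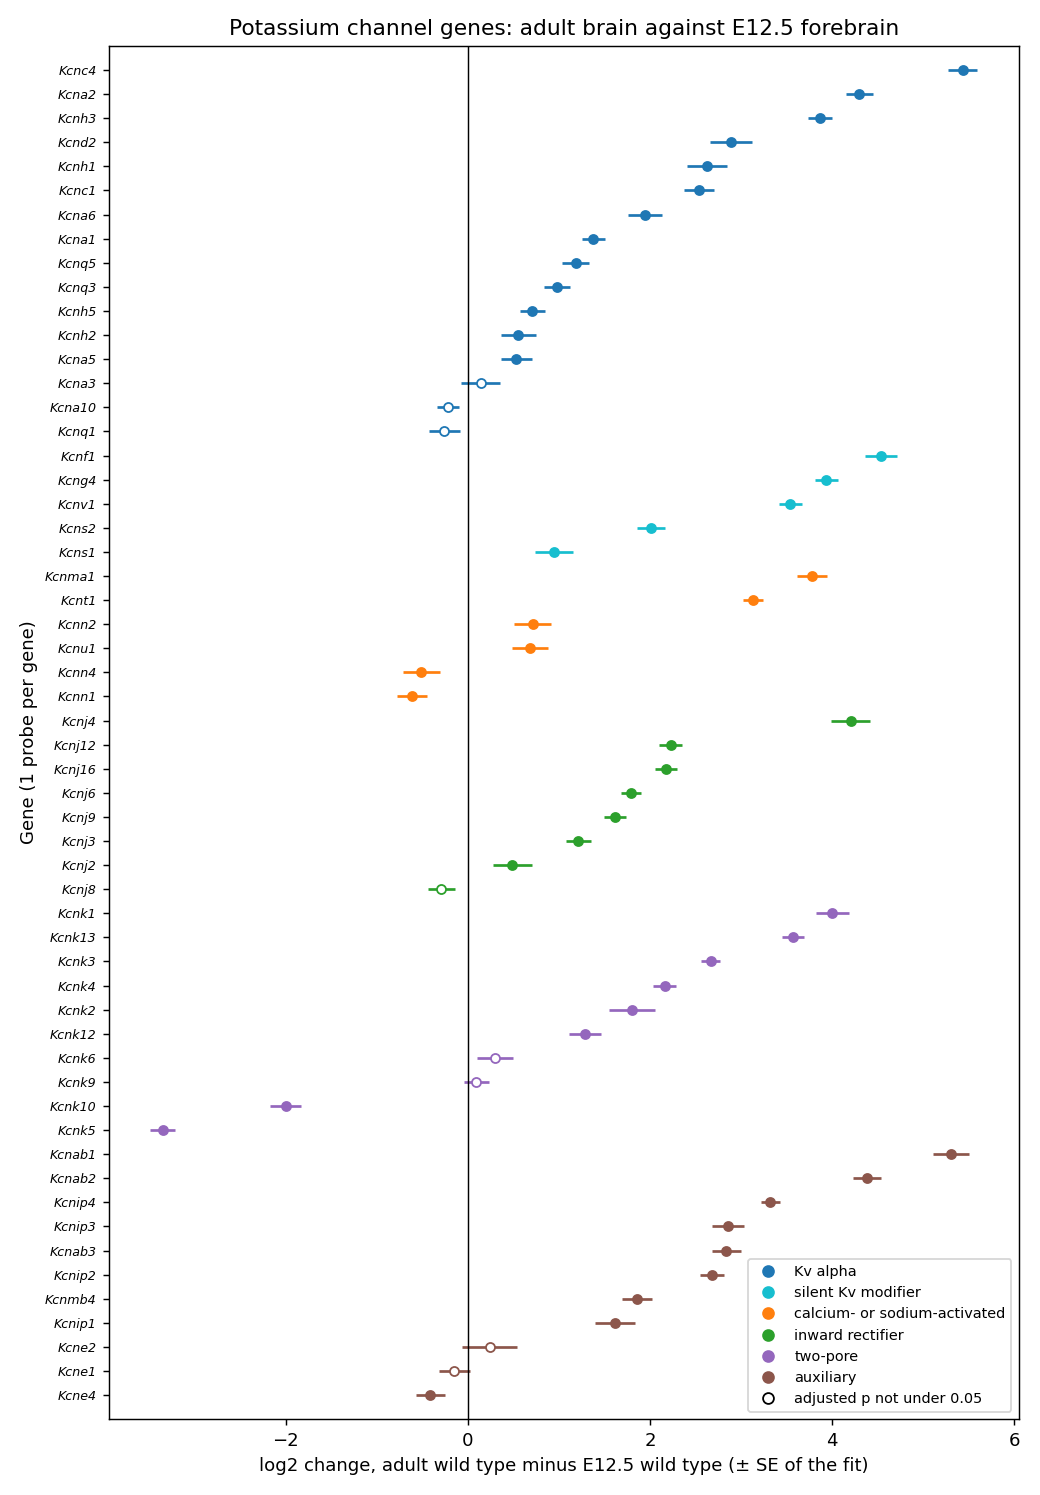
Log2 change of 56 potassium channel genes between adult and E12.5 wild type arrays, as the fitted difference ± SE, with 1 probe per gene and colours for channel families. Open circles mark 8 genes that were not called. Points for genes detected in 1 of the stages are fitted differences and not bounds. 43 filled points lie to the right of 0 and 5 to the left.

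Kv pore subunits gave 13 genes higher and none lower of 16 tested, where 31.4% of all probes were higher and 37.1% lower. Of the 16, 8 were detected in adult but on no E12.5 wild type array, and of the 4 detected on all 8 arrays 3 were higher. Kcnc4, whose channels inactivate fast and shorten action potentials, had log2 signals of 5.98, 5.95, 6.25, 6.20 and 6.00 in E12.5 wild types and 11.48, 11.60 and 11.61 in adult wild types. The groups lay far apart (43.2-fold, adjusted p = 2.32e-18), and another Kcnc4 probe, detected on no E12.5 wild type array, was at least 9.58-fold higher. The fast delayed rectifier Kcnc1 read 6.94, 6.87, 7.34, 7.06 and 6.80 at E12.5 and 9.68, 9.43 and 9.52 in the adult. It was detected on every array of both stages, and its rise was 2.53 ± 0.16 (adjusted p = 2.95e-12). Kcna2, an axonal channel subunit, read 4.77, 4.67, 5.07, 4.56 and 5.06 at E12.5, where no array detected it, and 9.03, 9.14 and 9.15 in the adult. Its adult level was at least 15.2-fold higher (adjusted p = 2.74e-17), where the bound uses the lowest detected signal on each undetected array. Such bounds, here and below, rest on group means and carry no interval. The axonal partner of Kcna2, Kcna1, was also detected on no E12.5 wild type array. It was at least 2.10-fold higher in the adult (adjusted p = 1.23e-09). Kcnd2, which carries somatodendritic A-type current, read between 4.56 and 5.39 at E12.5, with 2 of 5 arrays detected, and between 7.75 and 8.09 in the adult, a rise of 2.89 ± 0.23 (adjusted p = 9.34e-11).

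Subunits of the ether-a-go-go and M-current families were higher too. Kcnh3, a forebrain member of the ether-a-go-go family, was at least 9.25-fold higher in the adult and Kcnh1 at least 4.18-fold, both with no detected E12.5 wild type array. Kcnq3 and Kcnq5, which form the M current that restrains repetitive firing, were at least 1.61-fold and 1.49-fold higher. Kcna3, the main Kv channel of T cells, which is also expressed by microglia, read 5.56, 5.29, 6.06, 5.57 and 5.96 at E12.5 and 5.88, 5.86 and 5.80 in the adult. The groups overlapped, all 8 arrays detected it, and the difference was 0.14 ± 0.21 (adjusted p = 0.567). Kcna10 and the cardiac and inner ear channel Kcnq1 were not called either.

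All 5 silent modifiers that could be tested were higher in the adult, against 31.4% of all probes. Of the 5, 2 were detected on no E12.5 wild type array and 1 on all 8 arrays. These subunits form no channel alone and shift the gating of Kv partners. Kcnf1 read 5.61, 5.81, 5.79, 5.94 and 5.57 at E12.5 and 10.54, 10.34 and 10.07 in the adult, a 23.3-fold rise with all 8 arrays detected (adjusted p = 2.22e-16). Kcng4 was at least 9.25-fold and Kcnv1 at least 7.13-fold higher, with no E12.5 wild type array detected. Kcns2 rose by 2.01 ± 0.15 and Kcns1 by 0.95 ± 0.21, each detected on 3 of 3 adult and 1 of 5 E12.5 wild type arrays, and the Kcns1 groups overlapped.

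The family of calcium- and sodium-activated channels divided, with 4 genes higher and 2 lower of 6, against 31.4% and 37.1% of all probes. Of these 3 were detected in adult but on no E12.5 wild type array, and of the 2 detected on all 8 arrays 1 was higher and 1 lower. That rise was of Kcnu1 (0.68 ± 0.20), placed in this family by the letters of its symbol and not by what activates it. Kcnma1, the pore of the large-conductance channel that couples calcium entry to repolarisation, read 4.49, 4.39, 4.76, 4.63 and 4.66 at E12.5 and 8.62, 8.41 and 8.14 in the adult. It was at least 9.22-fold higher in the adult (adjusted p = 1.80e-15). Kcnt1, a sodium-activated channel, was at least 5.62-fold higher. Kcnn1, a small-conductance channel of the afterhyperpolarisation, went the other way, at 7.40, 7.13, 7.67, 7.28 and 7.09 at E12.5 and 6.72, 6.94 and 6.55 in the adult. Its groups did not overlap, and it fell by 0.62 ± 0.16 (adjusted p = 0.00207). Its relative Kcnn2 was at least 1.14-fold higher in the adult by the means (adjusted p = 0.00340), though the groups overlapped. Without adult wild type replicate 1 the Kcnn2 change was 0.45 (adjusted p = 0.0569). Kcnn4, an intermediate-conductance channel of blood and immune cells, was detected on 3 E12.5 and no adult wild type arrays, and its groups overlapped. It was at least 1.03-fold higher at E12.5 (adjusted p = 0.0310), and the call was lost without E12.5 wild type male replicate 1 or female replicate 2 or adult wild type replicate 1 or 3, each left out alone, with adjusted p between 0.0566 and 0.104. The mean log2 signal of 3 red cell markers lay between 12.32 and 13.08 at E12.5 and between 8.76 and 9.50 in the adult; their part in the Kcnn4 difference was not tested.

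Inward rectifiers were higher in 7 of 8 cases, against 31.4% of all probes. Of the 8, 4 were detected in adult but on no E12.5 wild type array, and of the 2 detected on all 8 arrays 1 was higher. Kcnj4, a strong rectifier of forebrain neurons, read 5.06, 5.19, 4.92, 4.96 and 4.80 at E12.5, with 1 array detected, and 9.21, 9.11 and 9.22 in the adult. The rise was 4.20 ± 0.21 (adjusted p = 3.66e-14). Kcnj3, Kcnj6 and Kcnj9, the G protein-gated channels through which many transmitters inhibit neurons, were all higher. Kcnj3 was detected on all 8 arrays and rose by 1.21 ± 0.14, and Kcnj6 and Kcnj9 were at least 2.97-fold and 1.91-fold higher. Kcnj16, a subunit found in glia and kidney, was at least 3.38-fold higher. Kcnj2 was at the edge of the threshold (0.49 ± 0.22, adjusted p = 0.0498), and its groups overlapped. Kcnj8, the pore of the vascular ATP-sensitive channel, read 6.18, 6.32, 5.77, 5.85 and 5.98 at E12.5 and 5.73, 5.68 and 5.68 in the adult (adjusted p = 0.0932). Median scaling in place of quantile normalisation brought the Kcnj8 difference to -0.40 (adjusted p = 0.0275).

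Two-pore channels gave 6 genes higher and 2 lower of 10, against 31.4% and 37.1% of all probes. Of the 10, 4 were detected in adult but on no E12.5 wild type array, and of the 4 detected on all 8 arrays 2 were higher and 1 lower. Kcnk1, a weakly rectifying leak channel that is abundant in astrocytes, read 7.49, 7.15, 6.82, 7.42 and 7.20 at E12.5 and 11.32, 11.22 and 10.97 in the adult, a 16.04-fold rise (adjusted p = 6.08e-15). Kcnk13 and the acid-sensitive leak channel Kcnk3 were at least 8.36-fold and 3.96-fold higher. Kcnk5, an alkaline-activated leak channel best known from kidney, read 8.12, 8.36, 7.96, 7.98 and 7.91 at E12.5 and 4.54, 4.68 and 4.80 in the adult, where no array detected it. It was at least 7.94-fold higher at E12.5 (adjusted p = 6.28e-16), and the other tested Kcnk5 probe was lower in the adult as well. The mechanosensitive family split. Kcnk10 read 7.40, 7.43, 7.80, 7.72 and 7.68 at E12.5 and 5.82, 5.60 and 5.35 in the adult, and fell by 2.00 ± 0.17 (adjusted p = 5.00e-10). Its relative Kcnk2 rose by 1.80 ± 0.25 (adjusted p = 1.12e-06), although only 1 of 2 Kcnk2 probes was called. Kcnk4 was at least 2.91-fold higher with 1 of 2 tested probes called.

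Among the auxiliary subunits 8 were higher and 1 lower of 11, against 31.4% and 37.1% of all probes. Of the 11, 2 were detected in adult but on no E12.5 wild type array, and of the 5 detected on all 8 arrays 4 were higher. The beta subunits, which bind the cytoplasmic face of Kcna channels, included Kcnab1, at 5.60, 5.70, 5.79, 5.13 and 5.11 at E12.5 and 10.70, 10.88 and 10.58 in the adult. Of its 3 probes 2 rose, by 5.26 and 5.31, and the third, detected on no E12.5 wild type array, was at least 4.52-fold higher in the adult. Kcnab2 read 6.95, 7.23, 7.55, 7.47 and 6.97 at E12.5 and 11.60, 11.61 and 11.86 in the adult (20.8-fold, adjusted p = 5.57e-17), and Kcnab3 rose by 2.84 ± 0.16. The Kv channel-interacting proteins, calcium sensors of the A-type channel complex, were higher for all 4 genes. Kcnip3 rose by 2.86 ± 0.17 and Kcnip1 by 1.62 ± 0.22 with all 8 arrays detected, and Kcnip4 and Kcnip2 were at least 6.86-fold and 5.28-fold higher. Kcnmb4, the brain beta subunit of the Kcnma1 channel, read 8.17, 8.04, 7.66, 7.53 and 7.74 at E12.5 and 9.65, 9.55 and 9.84 in the adult. It rose by 1.86 ± 0.17 (adjusted p = 1.04e-09).

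Of the 3 Kcne subunits, single-span proteins that slow or silence Kv channels, none was higher in the adult. Kcne1 and Kcne2 were not called (-0.15 ± 0.17 and 0.24 ± 0.30). Kcne4 read 5.43, 5.50, 5.39, 5.15 and 5.21 at E12.5 and 4.91, 4.85 and 4.94 in the adult, where no array detected it. It was at least 1.199-fold higher at E12.5 (adjusted p = 0.0258). The call was lost without E12.5 wild type male replicate 1 or 2 or adult wild type replicate 1 or 2, each left out alone, with adjusted p between 0.0528 and 0.0739. Of 25 genes with several probes, 13 had several that passed the detection filter. In 9 of the 13 all tested probes were called in 1 direction, in 2 some were, and 0 were called in opposite directions. Probes removed by the filter are outside that count. Among genes called higher, Kcnh1, Kcnh2, Kcnip1, Kcnj6 and Kcnn2 had at least 1 further probe that was detected on no array. Kcng4 and Kcnk4 each had a further probe detected on only 1 adult array.

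**Figure D2:**
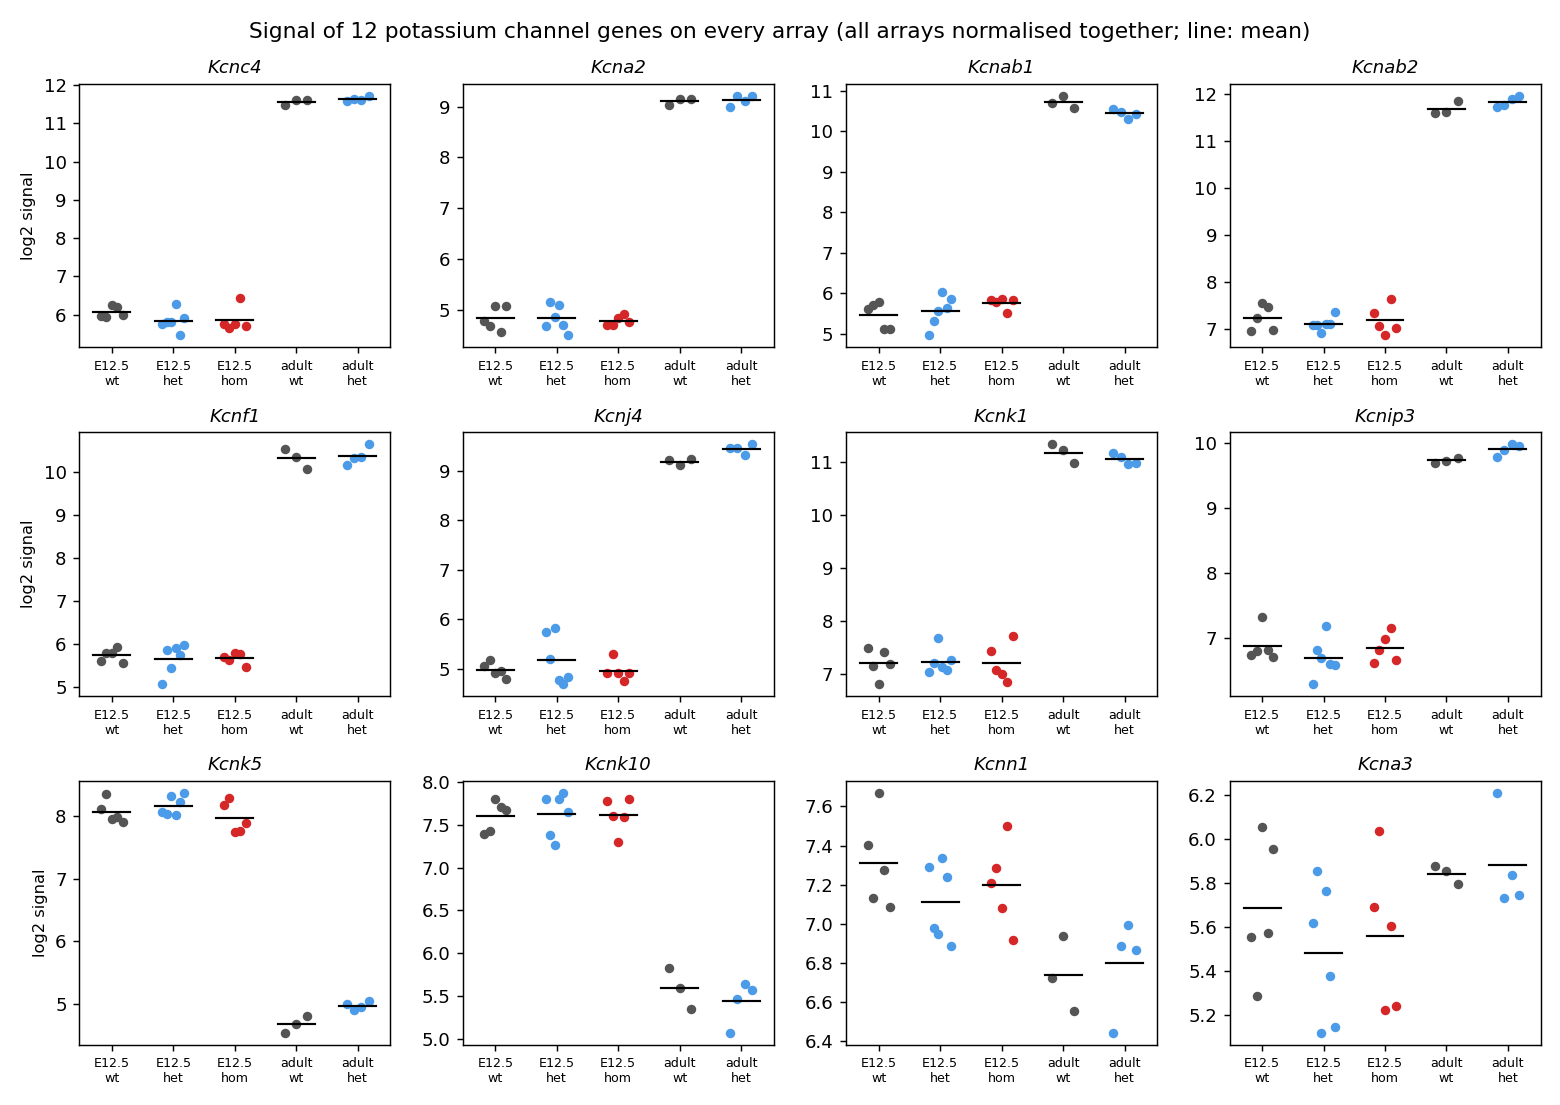
Log2 signal of 12 potassium channel genes on each of the 23 arrays, all normalised together, by stage and Meis1 genotype (wt, wild type; het, heterozygote; hom, homozygote); each point is 1 mouse and the line is the mean. Kcnc4 lies near 6 at E12.5 and between 11.48 and 11.61 in adult wild types, Kcnk5 runs the opposite way, and the genotypes overlap within most panels.

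Genes that work beside potassium channels were read from lists of partners. Of 10 channel partner genes tested, 7 were higher in the adult and 1 lower, where 31.4% of all probes were higher and 37.1% lower. Of the 6 detected on all 8 arrays, 3 were higher and 1 lower, and 1 of the 10, Abcc8, was detected on no E12.5 wild type array. Abcc8, the regulatory subunit of ATP-sensitive channels, was at least 3.85-fold higher in the adult. Dpp6, which joins the A-type complex, rose by 2.59 ± 0.23 with all 8 arrays detected. The pacemaker channel gene Hcn2, detected on 4 of 5 E12.5 arrays, rose by 5.49 ± 0.16, and Lgi1, which regulates Kcna1 channels and was detected on 2 of 5, by 4.74 ± 0.21. Cntnap2, which clusters Kcna channels beside the node of Ranvier, fell by 1.83 ± 0.21 (adjusted p = 8.03e-08), whereas Kcna1 and Kcna2 were higher in the adult. All 4 genes tested for the potassium and chloride gradients were higher. They included the sodium pump subunit Atp1b1 (4.89 ± 0.20), 1 of 3 detected on all 8 arrays, and the chloride extruder Slc12a5, which no E12.5 wild type array detected and which was at least 1.91-fold higher. All 5 voltage-gated sodium channel genes tested were higher as well, 2 of them with all 8 arrays detected. The auxiliary subunit Scn2b was 1 of these (4.52 ± 0.17), and Scn4b, detected on no E12.5 wild type array, was at least 44.3-fold higher.

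Homozygotes were compared with wild types at E12.5 to ask which channel genes differed with the Meis1 allele. No potassium channel probe was called by limma, and 0.0488% of all 14340 probes were (7 probes, Meis1 among them at -1.22 ± 0.12, adjusted p = 0.000285). At an unadjusted p under 0.05 there were 3 of 39 potassium channel probes (7.69%), against 11.8% of all probes. The changes ran from -0.48 to 0.43, and 11 of 39 were above 0, with a median of -0.07 against 0.00 over all probes. The 95% interval of each of the 39 changes lay within 1 log2 unit of 0 on both sides, with a median half-width of 0.32.

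In heterozygotes against wild types at E12.5, 0 potassium channel probes and 0% of all probes were called, with Meis1 at -0.40 ± 0.11 (adjusted p = 1.00). At an unadjusted p under 0.05 there were 6 of 39 (15.4%), against 3.31% of all probes, and 18 of 39 changes were above 0. Both comparisons use the same 5 wild types, so their values are set side by side without being counted as agreement. In homozygotes against heterozygotes no potassium channel probe was called, and 0.0697% of all probes were (10 probes, with Meis1 at -0.82 ± 0.11, adjusted p = 0.00412). There 2 of 39 potassium channel probes had an unadjusted p under 0.05, against 8.30% of all probes. No potassium channel probe had groups without overlap in any of these 3 comparisons, and 0.823%, 0.139% and 0.272% of all probes did.

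Kcna3 had the smallest unadjusted p among the members in both comparisons with wild type. Its log2 signal was 5.73, 5.44, 6.28, 5.75 and 6.17 in wild types and 5.88, 6.26, 5.37, 5.79 and 5.38 in homozygotes. In heterozygotes the lowest was 5.25, the median 5.67 and the highest 6.06, with 4 of 6 arrays detected. The 3 groups overlapped across nearly their whole range. With litter and sex as terms the homozygote change was -0.42 ± 0.13 (limma, adjusted p = 0.379) and the heterozygote change -0.47 ± 0.12 (limma, adjusted p = 1.00).

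These sizes depend on the litter term. The first part of each mouse number was read as a litter, and the labels do not state litters. Mean Kcna3 signal was 6.01 in litter 509, 5.63 in 542, 6.00 in 549 and 5.45 in 551, and litter 549 held no wild type. Litters 509, 542 and 551 held 1 homozygote each, which lay 0.49, 0.58 and 0.22 log2 units below the mean of its wild type littermates. These wild types numbered 1, 2 and 2. The heterozygotes, 1, 2 and 1 in number, lay 0.32, 0.55 and 0.34 below on average. Without the litter term the changes were -0.14 and -0.22. In males alone, a fit that also had no litter term, they were -0.24 and -0.21. They were -0.12 and -0.14 without background correction and -0.64 and -0.72 on the authors' processed values. Against each other, homozygotes and heterozygotes differed by 0.05 ± 0.11 (adjusted p = 0.903). Since microglia express Kcna3, the mean of 4 microglia and macrophage markers was read beside it. It lay between 6.89 and 7.11 in wild types, 7.04 and 7.26 in heterozygotes and 6.44 and 6.88 in homozygotes, and its part in the Kcna3 values was not tested.

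**Figure D3:**
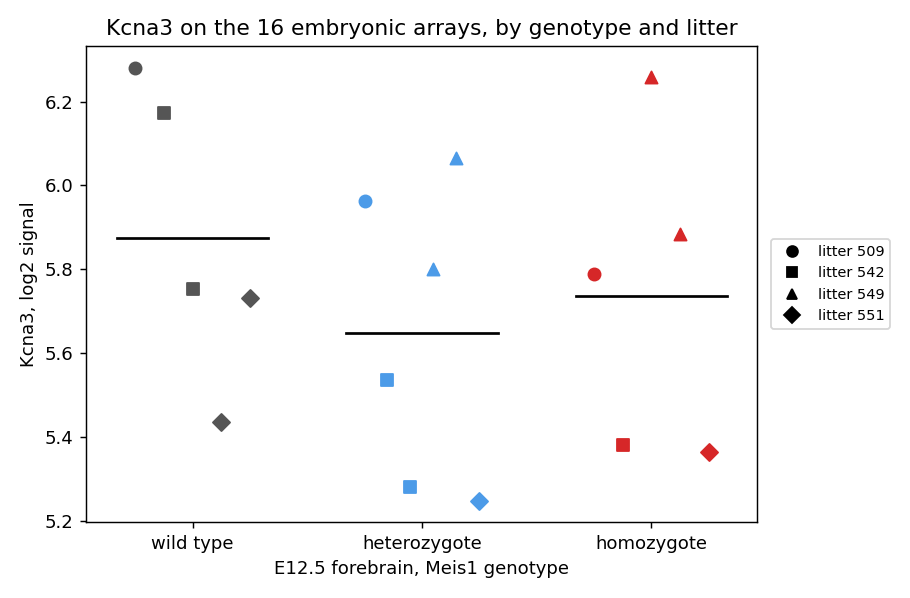
Log2 signal of Kcna3 on the 16 embryonic arrays by Meis1 genotype, with 1 point per embryo, marker shapes for the litter read from the mouse number, and a line at each group's mean. The groups overlap. In each of litters 509, 542 and 551 the 1 homozygote, and the mean of the 1 or 2 heterozygotes, lie below the mean of the 1 or 2 wild types.

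The other members with the smallest p-values included the auxiliary subunits Kcne4, Kcne2 and Kcnab1. Kcne4, which suppresses Kcna3 and other Kv channels, read 5.59, 5.67, 5.55, 5.29 and 5.35 in wild types and 5.68, 5.54, 5.88, 5.87 and 5.53 in homozygotes. In heterozygotes the lowest, median and highest were 5.35, 5.69 and 6.11. The groups overlapped, with changes of 0.28 ± 0.11 (adjusted p = 0.385) and 0.29 ± 0.10 (adjusted p = 1.00). Kcne2, a subunit abundant in choroid plexus, read 7.49, 7.47, 7.56, 6.82 and 6.79 in wild types and 6.77, 6.72, 6.996, 7.13 and 5.95 in homozygotes. In heterozygotes its lowest, median and highest were 5.69, 6.63 and 7.35. The changes were -0.48 ± 0.20 (adjusted p = 0.407), or -0.32 without homozygote female replicate 2, and -0.53 ± 0.19 (adjusted p = 1.00). The mean of 4 choroid plexus markers lay between 7.62 and 7.97 in wild types, 7.58 and 7.85 in homozygotes and 7.47 and 7.86 in heterozygotes; its part in the Kcne2 values was not tested.

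Kcnab1 read 5.79, 5.90, 5.99, 5.26 and 5.24 in wild types and 6.04, 5.98, 6.06, 5.68 and 6.04 in homozygotes. The change was 0.43 ± 0.20 (adjusted p = 0.423), or 0.66 without homozygote male replicate 3, while the other Kcnab1 probe kept in embryos gave 0.23 ± 0.21. Kcna10, a Kv subunit of muscle and inner ear, was detected in 4 of 5 wild types, 2 of 5 homozygotes and 1 of 6 heterozygotes, with changes of -0.21 ± 0.10 (-0.14 without wild type male replicate 2) and -0.32 ± 0.09. Kcnc1 had a change of -0.28 ± 0.11 in heterozygotes (adjusted p = 1.00). In homozygotes against heterozygotes the smallest p-values belonged to Kcns1 (-0.33 ± 0.14), Kcnk6 (-0.34 ± 0.15), Kcnu1 (-0.21 ± 0.11), Kcnj4 (-0.28 ± 0.16) and Kcnk5 (-0.20 ± 0.12), with adjusted p between 0.599 and 0.651. Single embryos moved 4 of these changes by over 1.5 times. Without homozygote male replicate 2 that of Kcns1 was -0.19 and that of Kcnk5 -0.11, and without heterozygote male replicate 3 that of Kcnk5 was -0.11. Kcnj4 stood at -0.14 without heterozygote female replicate 1 and -0.16 without heterozygote male replicate 1, and Kcnu1 at -0.13 without heterozygote male replicate 2. Kcnk5, the member furthest on the embryonic side of the stage comparison, stayed between 8.07 and 8.71 on all 16 embryonic arrays.

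In adult males, heterozygotes were compared with wild types. No potassium channel probe was called by limma and 0% of all 14266 probes were, with Meis1 at -0.62 ± 0.19 (adjusted p = 0.386). At an unadjusted p under 0.05 there were 10 of 64 (15.6%), against 10.7% of all probes. Without heterozygote replicate 4, whose cerebellar genes were low, there were 0 calls among the members and 8 of 64 at that level. The share of all probes at that level was not counted in that fit, so the 8 cannot be set against it. The groups did not overlap for 6 potassium channel probes, 3 above and 3 below wild type, or 6 of 64 where 10.4% of all probes had groups without overlap.

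Kcne4 had the smallest p, at 4.94, 5.05, 5.50 and 5.05 in heterozygotes, all detected, and 4.67, 4.62 and 4.69 in wild types, none detected. The heterozygotes all lay above the wild types, with a fitted change of 0.47 ± 0.13 (limma, adjusted p = 0.367). Their mean was 1.27-fold above the lowest detected signal on the wild type arrays, a figure that carries no interval. The fitted change of 0.47 was 0.13 without background correction, 0.23 with an offset of 50, 0.35 without heterozygote replicate 3 and 1.21 on the authors' processed values. Kcna1 read 5.41, 5.41, 5.21 and 5.52 in heterozygotes and 5.62, 5.80 and 5.70 in wild types, a change of -0.32 ± 0.10 (adjusted p = 0.413). Kcnab1, whose product binds Kcna1 channels, read 9.68, 9.61, 9.45 and 9.57 in heterozygotes and 9.84, 10.04 and 9.72 in wild types (-0.29 ± 0.11, adjusted p = 0.418). Kcnj4 read 8.61, 8.62, 8.47 and 8.67 in heterozygotes and 8.36, 8.27 and 8.38 in wild types (0.26 ± 0.09, adjusted p = 0.414). Kcnip4, a Kv channel-interacting protein, read 6.79, 7.12, 6.93 and 6.86 in heterozygotes and 7.10, 7.33 and 7.18 in wild types, and the groups overlapped (-0.28 ± 0.11, adjusted p = 0.430). None of these differences passed the adjustment. Without heterozygote replicate 4 the change was 0.50 for Kcne4, -0.36 for Kcna1, -0.29 for Kcnab1, 0.23 for Kcnj4 and -0.26 for Kcnip4. Kcna3 read 5.40, 5.38 and 5.34 in wild types and 5.67, 5.29, 5.37 and 5.30 in heterozygotes, a difference of 0.03 ± 0.11 (adjusted p = 0.929).

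The heterozygote effect was then tested between the stages. For 0 of 72 potassium channel probes and 0% of all 16352 probes did it differ by limma, and 4 of 72 had an unadjusted p under 0.05, against 6.78% of all probes. The smallest p belonged to Kcna10 (0.41 ± 0.13, adult effect minus E12.5 effect, adjusted p = 0.521). Kcna3 gave 0.47 ± 0.17 (adjusted p = 0.613), which fell to 0.24 without the litter term, and Kcna1 gave -0.42 ± 0.16 (adjusted p = 0.613).

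**Figure D4:**
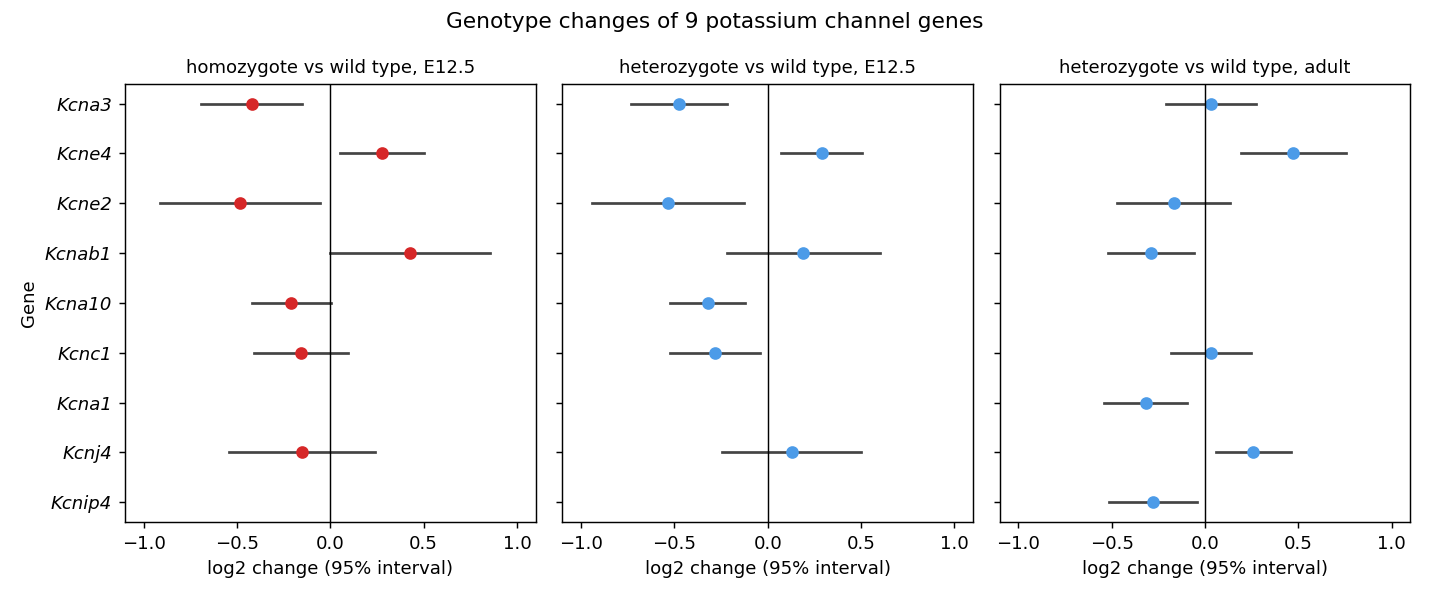
Log2 changes of 9 potassium channel genes with their 95% intervals, in homozygotes and heterozygotes against the same E12.5 wild types and in adult heterozygotes against adult wild types. A gene without a point was not kept at that stage. Kcna3 lies at -0.42, -0.47 and 0.03, and Kcne4 at 0.28, 0.29 and 0.47; no change passed the adjusted threshold.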

How the data were processed

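Total RNA of 23 mice was hybridised to Illumina arrays, which were read with GenomeStudio 2011.1, per the submitters' processing notes. The deposited table without normalization holds an intensity per probe and array and, per the file headers, a detection p-value. A second deposited table holds processed intensity, with column medians of 31.1 to 31.3 in embryos and 16.2 to 16.3 in adults; the sources used here give neither its method nor its centring and scale, and it served as an alternative. 

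Unnormalized signals were background-corrected by the neqc normal-exponential model (limma 3.58.1, R 4.3.3) from the detection p-values with an offset of 16, quantile normalised and put on the log2 scale, embryos and adults apart and all 23 arrays together for comparisons of stage. Embryos shared 1 fit with genotype, sex and litter, adults a fit of genotype, and the joint set a fit of condition and sex, with litter added for the test of the heterozygote effect between stages. P-values are two-sided and adjusted by Benjamini-Hochberg over all probes kept (14340 embryonic, 14266 adult, 16352 joint). Errors beside changes are standard errors. Labels do not say whether samples share a litter, so p-values measure the spread between these mice. All 116 member probes matched the GRCm38.p6 gene table by Entrez number, and 0 symbols changed. Where a gene had several probes, the one of highest mean signal stood for it in the stage comparison and the partner lists. In the genotype comparisons and the test of the heterozygote effect between stages, the one of smallest p did. Named were Kcna3 throughout, the 5 members of smallest p in each genotype comparison, the 10 largest called rises and all called falls between stages, and a list of channel roles (18 of 23 genes had a probe; the others were not analysed here). Further members of each family were named after their values were seen. Partner genes came from 3 lists. The fits were tested on simulated data. Members and lists were chosen with earlier results of these data known.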

Additional observations from a re-analysis of the deposited data

Results flagged for a closer look

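Within the groups of 4 to 6 mice, 107 groups of 35 potassium channel probes were examined for a single mouse far from the others, and 7 were found; chance gives about 1 in 20. Homozygote male replicate 3 was lowest for Kcnab1, at a log2 signal of 5.68 with the nearest homozygote at 5.98. The same embryo was highest for Kcnc1, at 7.62 with the nearest at 7.03, and for Kcnc4, at 6.70 with the nearest at 5.97. Homozygote female replicate 2 was highest for Kcnk6, at 6.84 against 6.18. Among wild types, male replicate 1 was highest for Kcns1, at 6.05 against 5.25, and male replicate 2 for Kcnip3, at 7.62 against 7.09. Heterozygote female replicate 1 was highest for Kcnk1, at 8.004 against 7.57.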

How the results depend on the processing

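All 214 counts of potassium channel probes made under alternative settings, 147 of them with 1 array left out, stayed within 1.5 times of the reported ones. Each stage setting gave 3 of these counts, for probes called, higher and lower. A count of 0 that stayed 0 was scored as unchanged. The counts of probes called were 0 for each genotype comparison throughout and between 55 and 64 for stage. The median member change between stages was 0.60 without background correction. Without 1 array the stage count ran from 57 to 61. With the replicate block, run for stage on wild type males alone, the stage count was 57 (52 higher, 5 lower). For genotype the block gave 0. Replicate numbers were not taken as pairs, since no label gives them a shared litter or day and not every pair's deviations correlated above 0.1. By the litter read from the mouse number, 4 of 15 same-numbered embryo pairs shared a litter. Deviations from the mean of each genotype and sex correlated above 0.1 in 11 of the 15 embryo pairs and 1 of 3 adult pairs. Of 15 embryos, 8 correlated best with an embryo of their own number. Female wild types and female homozygotes had 2 mice each, whose deviations mirror each other, so these counts are not independent. In wild type males alone, the Kcne4 and Kcnn4 stage calls were lost with the block (limma, adjusted p = 0.0576 and 0.156). Without the block, the same males gave no Kcnn4 call either (limma, adjusted p = 0.174), and Kcne4 kept its call. Kcne4 and Kcnn4 also lost their stage calls with an offset of 50 and with median scaling, and Kcne4 without background correction; the cause was not tested. The difference between homozygotes and heterozygotes for Kcna3 was -0.0361 in males alone, a fit without the litter term. It ran from -0.0212 to 0.115 without 1 array. In males alone, again without the litter term, the Kcnu1 difference between homozygotes and heterozygotes was 0.16. The adult Kcna3 difference was -0.0145 with median scaling and ran from -0.0565 to 0.0722 without 1 array. Median scaling moved the median of all probes between the stages from -0.12 to -0.34, and in adults to -0.11. Comparisons between stages were not run on the authors' processed values, which were scaled apart. Undetected probes carry only bounds, and with 3 to 6 mice a group genotype changes under about 0.3 log2 units lay within the intervals.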
